A study of Mus musculus with 4 samples.

Results

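The genes described here are 9 that act on fibrillar collagen after its chains are translated: the lysyl oxidases Lox, Loxl1, Loxl2 and Loxl3, the lysyl hydroxylases Plod1 and Plod2, the prolyl 4-hydroxylase subunit P4ha1, the procollagen chaperone Serpinh1, also known as HSP47, and the procollagen C-proteinase enhancer Pcolce. They were chosen by name, and all 9 were found once each among the 32285 features of the count tables. The data are Visium spatial transcriptomics of 4 mouse heart sections after permanent ligation of the left anterior descending coronary artery, which starves part of the left ventricle of blood and causes a myocardial infarction (MI). Visium captures mRNA on a slide of barcoded spots and counts molecules as unique molecular identifiers (UMIs), so each spot holds RNA of the several cells lying over it. The groups were day 1, day 4, day 7 and day 14 after ligation, with 1 section of 1 female mouse each, of the outbred Hsd:ICR (CD1) stock and 12 weeks old at surgery. All 4 hearts were ligated, the labels give ligation as the sole treatment, and no uninjured or sham heart was among the sections.

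Fibrillar collagen is made in steps. In the endoplasmic reticulum, prolyl and lysyl residues of the new chains are hydroxylated, and Serpinh1 holds the folded triple helix until it leaves. Outside the cell, proteinases trim the ends of procollagen, helped by Pcolce, and lysyl oxidases then turn lysines and hydroxylysines into aldehydes that form the crosslinks which make a scar stiff and hard to digest. Hypoxia-inducible factor is known to switch on Lox, Loxl2, Plod1, Plod2 and P4ha1 in cultured cells.

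To place the genes between injured and spared muscle without using collagen itself, the spots of each section were ranked on the share of their UMIs that came from Myh6 and Myl2, 2 contractile genes of cardiomyocytes, and divided into 4 bins of 419 to 522 spots, from Q1 with the lowest to Q4 with the highest share. Q1 thus holds the spots with the least cardiomyocyte RNA. Its pooled Myh6 and Myl2 share was 0.773%, 0.271%, 0.229% and 1.53% on days 1, 4, 7 and 14, and that of Q4 ran from 2.56% to 2.82%. The bins are therefore not alike across days, and on day 14 Q1 held much more muscle RNA than on days 4 and 7. A summed list of 7 other cardiomyocyte genes followed the ranking, with 10617 to 37439 counts per 1000000 UMIs (CPM) in Q1 and 46811 to 53052 in Q4.

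Other cells were unevenly spread over the bins too, and in spots more cells of a type and more RNA per cell cannot be told apart. The macrophage list (all 6 genes found) summed to 973 to 5804 CPM in Q1 of the 4 sections and to 248 to 388 in Q4, and the myofibroblast list (5 genes) to 506 to 4776 and 58.1 to 155. The fibroblast list (6 genes, Col1a2 among them) was higher in Q1 on days 4, 7 and 14, at 5697 to 14886 against 2365 to 3130, but lower on day 1, at 1566 against 3097. The neutrophil list was highest in Q1 of day 1, at 386 CPM. Q1 of day 7 also held fast skeletal muscle RNA, 20340 CPM over 10 genes with 115 of 462 spots at 10 or more such UMIs. Beside that, its atrial list stood at 151 with 1 of 4 genes at 0, and its adipocyte list at 783 CPM. Depth was 9292678 to 15713779 UMIs per section in the 7503 spots kept, and Q1 of day 7 and day 14 was shallow, with medians of 2826 and 2330 UMIs per spot against 5515 to 9285 in the other bins of those sections.

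The lysyl oxidases stood out most clearly in the spots poor in cardiomyocyte RNA. Lox, the founding member of the family, was at 55.5, 478, 403 and 58.1 CPM in Q1 on days 1, 4, 7 and 14. In Q4 it was close to absent, at 2.06, 3.95, 6.14 and 2.38, which rest on 6, 15, 16 and 10 UMIs. Q1 was thus far above Q4 in every section, by a ratio of 26.9 (exact 95% interval 12.1 to 74.5), 121 (73.0 to 217), 65.7 (40.1 to 116) and 24.4 (12.8 to 52.2) in day order. All intervals given for a single section cover counting error only. Q1 held 62.3%, 83.4%, 72.2% and 82.3% of the Lox UMIs of its section on the same days, although it held 13.3% to 22.9% of all UMIs. The Q1 levels of days 1 and 14 had overlapping intervals. On day 1 the myofibroblast, macrophage and neutrophil lists were higher in Q1 than in Q4, as Lox was. The myofibroblast list was at 506 CPM against 58.1, and the macrophage list at 973 against 280. The summed fibroblast list was lower, although Col1a2 within it was higher, at 521 against 130. The part of these cells in the Lox level was not tested.

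Gene positions are those of GENCODE vM21 on GRCm38. Loxl1 (chr9:58287738-58313186, minus strand), which acts mainly on elastin, was at 231, 1019, 1426 and 342 CPM in Q1 and at 52.3, 36.6, 81.0 and 48.8 in Q4. It was the one member with its highest Q1 value on day 7 rather than day 4. Loxl2 (chr14:69609068-69695834, plus strand), which crosslinks collagen IV of basement membranes as well as fibrillar collagen, was at 54.8, 334, 179 and 60.0 in Q1 against 13.8, 9.75, 18.8 and 10.5. Loxl3 (chr6:83034173-83052562, plus strand), with the fewest UMIs of the 4, was at 34.0, 278, 144 and 25.4 against 4.47, 5.00, 8.06 and 3.09. Both were higher on day 4 than on day 7 beyond the counting intervals, while their day 1 and day 14 intervals overlapped in Q1. Loxl3 shares its place on the genome with Htra2 on the opposite strand, which had 1659 UMIs in the kept spots against 1595 for Loxl3.

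The hydroxylases made a shallower gradient. Plod1 (chr4:147909753-147936767, minus strand), a lysyl hydroxylase of the helical part of collagen, was at 111, 210, 182 and 86.4 CPM in Q1 and at 70.9, 64.3, 89.5 and 64.2 in Q4. P4ha1 (chr10:59323296-59373304, plus strand), a catalytic subunit of the enzyme that makes 4-hydroxyproline and so stabilises the triple helix, was at 82.6, 107, 93.2 and 39.3 against 25.5, 31.1, 45.3 and 23.6. For Plod1 the ratio of Q1 to Q4 was largest on day 4, at 3.27 (2.81 to 3.81). For P4ha1 counting error did not separate days 1 and 4, at 3.24 (2.48 to 4.28) and 3.44 (2.77 to 4.30). On day 14 the ratio was 1.34 (1.11 to 1.63) for Plod1 and 1.67 (1.23 to 2.26) for P4ha1. Plod2 (chr9:92542223-92608428, plus strand), which hydroxylates the telopeptide lysines that enter the most stable crosslinks, had a larger gradient and was at 24.8, 92.8, 91.8 and 35.0 against 9.63, 12.1, 9.60 and 11.7. Its ratios of 2.58, 7.66, 9.57 and 3.005 were above those of Plod1 on all 4 days, with overlapping intervals on day 1.

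Serpinh1 (chr7:99345376-99353239, minus strand) had the most UMIs of the 9 genes, 19807 in the kept spots. It was at 754, 1856, 1560 and 353 CPM in Q1 and at 174, 140, 297 and 125 in Q4. On day 1 its ratio of 4.33 (3.93 to 4.78) was as large as that of the collagen chain gene Col1a1, 4.19 (3.64 to 4.85). Pcolce (chr5:137605103-137613784, minus strand) was at 177, 890, 683 and 262 in Q1 against 105, 83.0, 117 and 86.8. Its day 1 ratio was small, 1.68 (1.46 to 1.95), and on that day Q1 and Q2, at 177 and 169, could not be separated by counting error, with a ratio of 1.05 (0.924 to 1.19).

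Promoter sequence was at hand for 4 of the 9 members in the RefSeq table (GRCm38.p6), namely Plod1, P4ha1, Serpinh1 and Pcolce. For Pcolce 0 bases of the 250-base window lay outside the annotated gene, so the other 3 are shown. The Pcolce window holds 1 GCGTG. Each stretch runs 5′ to 3′ on the gene's strand and ends at or before the annotated start. Capitals mark the core of a hypoxia response element, ACGTG or GCGTG on either strand, so that CACGT is ACGTG read from the other strand. Over the 250 bases upstream of all 32851 promoters in the table, 16.6% hold ACGTG, 28.2% GCGTG and 38.6% at least 1 of them. Plod1 (chr4:147936777-147937026, minus strand) holds 1 match, Serpinh1 (chr7:99353240-99353489, minus strand) holds 1, and P4ha1 (chr10:59323046-59323196, plus strand) holds 2 in the 151 bases shown. The 250-base window of P4ha1 also holds 1 ACGTG that is not within the bases shown. A match of 5 letters is a description of the window, not a site.
Plod1: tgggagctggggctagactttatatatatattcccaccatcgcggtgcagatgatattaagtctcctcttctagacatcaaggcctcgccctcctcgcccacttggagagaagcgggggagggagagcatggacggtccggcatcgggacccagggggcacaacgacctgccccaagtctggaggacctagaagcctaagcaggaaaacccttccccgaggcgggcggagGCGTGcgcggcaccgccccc
Serpinh1: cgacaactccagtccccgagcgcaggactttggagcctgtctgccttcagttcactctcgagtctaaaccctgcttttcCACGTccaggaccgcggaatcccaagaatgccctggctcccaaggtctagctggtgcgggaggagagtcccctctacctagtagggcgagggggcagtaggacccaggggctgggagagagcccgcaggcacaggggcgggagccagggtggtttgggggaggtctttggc
P4ha1: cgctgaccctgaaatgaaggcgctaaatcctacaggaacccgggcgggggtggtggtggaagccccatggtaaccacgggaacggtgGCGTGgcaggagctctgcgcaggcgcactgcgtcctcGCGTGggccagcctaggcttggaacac

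Q2 shows how fast the levels fell away from the spots poorest in muscle. On days 1, 4 and 7 it was intermediate for the lysyl oxidases: Lox was at 24.9, 62.1 and 70.1 CPM there, and Loxl1 at 154, 279 and 426. On day 14 both were already at the level of Q4 in Q2, with Lox at 1.27 and Loxl1 at 50.5. The ratio of Q1 to Q2 for Lox was 2.23 (1.68 to 2.98) on day 1 and 45.8 (20.4 to 127) on day 14. Q3 lay close to Q4 for most members, as with Serpinh1 at 174, 130, 309 and 122.

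**Figure D1:**
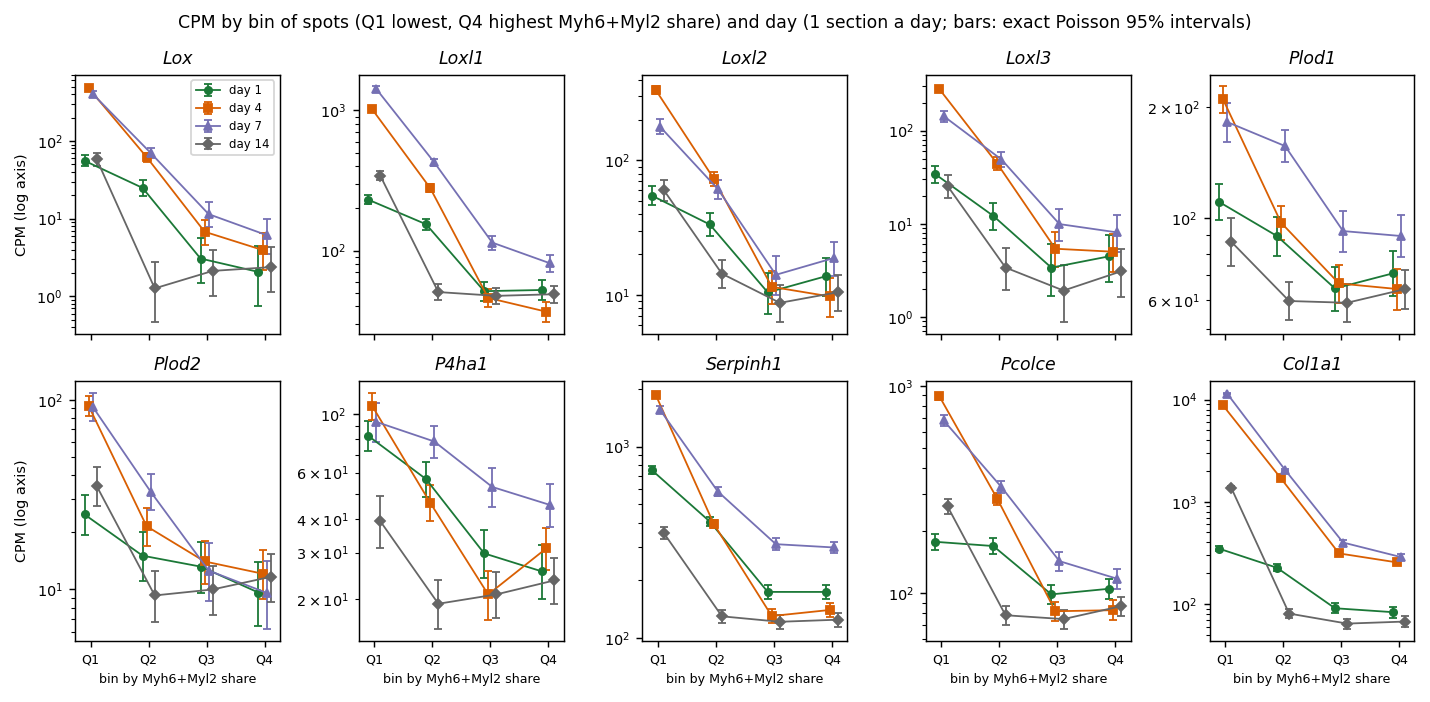
CPM (log axis) of the 9 genes and Col1a1 in the 4 bins of spots ranked by Myh6 and Myl2 share, 1 line per day and 1 section per day, with exact Poisson 95% intervals. The 4 lysyl oxidases fall by more than the Plod1 and P4ha1 levels from Q1 to Q4, and on day 14 (grey) their Q2 levels already lie near those of Q4.

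The average difference between bins over the 4 sections was tested with edgeR's quasi-likelihood test. It used UMIs summed per section and bin, with the section as a block. Against Q4, 8 of the 9 members were higher in Q1 at an adjusted p under 0.05, where 27.5% of the 11619 genes tested were higher. The median log2 fold change was 1.83 over the members and 0.07 over all genes. Lox led with 5.14 (SE 0.52), ahead of Loxl3 with 3.54 (SE 0.36), Loxl1 with 2.85 (SE 0.37) and Loxl2 with 2.63 (SE 0.34). Serpinh1 was higher by 1.83 (SE 0.25), Plod2 by 1.67 (SE 0.26), Pcolce by 1.49 (SE 0.30) and P4ha1 by 0.69 (SE 0.19). The largest adjusted p of these was 0.0068 by edgeR, for P4ha1. By CPM all 9 members were higher in Q1 of 4 of 4 sections, but so was P4ha2, another hydroxylase subunit with a fitted difference of -0.06. CPM scales to total UMIs, and on that scale the median gene was higher by 0.71 in log2. How many of all genes were higher in 4 of 4 sections was not counted. The 3 substrates stood above every member but Lox and Loxl3. Col1a1 was at 3.75 (SE 0.49), Col1a2 at 3.71 (SE 0.50) and Col3a1 at 3.40 (SE 0.53).

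Plod1 was at 0.33 (SE 0.14, adjusted p = 0.061 by edgeR) and did not pass, although it was higher by CPM in each section. Scaled to total UMIs rather than by TMM, the median gene itself was higher by 0.71 on the log2 scale in Q1, 6762 genes were higher and 1235 lower in place of 3200 and 2903, and Plod1 then passed with all 9 members. The P4ha1 call was lost without the day 1 section, with an adjusted p of 0.065 by edgeR. Without the spots that held 10 or more fast skeletal muscle UMIs, all 9 members were called higher.

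Neighbouring bins were compared in the same fit. From Q2 to Q1 6 members were higher, Lox by 2.18 on the log2 scale, Loxl3 by 1.63, Loxl1 by 1.249, Loxl2 by 1.21, Plod2 by 1.12 and Serpinh1 by 1.07, where 15.3% of all genes tested were higher. From Q4 to Q2 the 4 lysyl oxidases were higher, by 1.42 for Loxl2 to 2.96 for Lox, where 3.08% of genes were. By CPM Lox was higher in Q2 than in Q4 in 3 of 4 sections, and lower on day 14. No member was lower in either step. The step from Q4 to Q2 did not hold when sections were left out: leaving out day 1, day 4 or day 7 left 0 members and at most 1 gene of all those tested, whereas leaving out day 14 gave 5 members and 1510 genes.

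**Figure D2:**
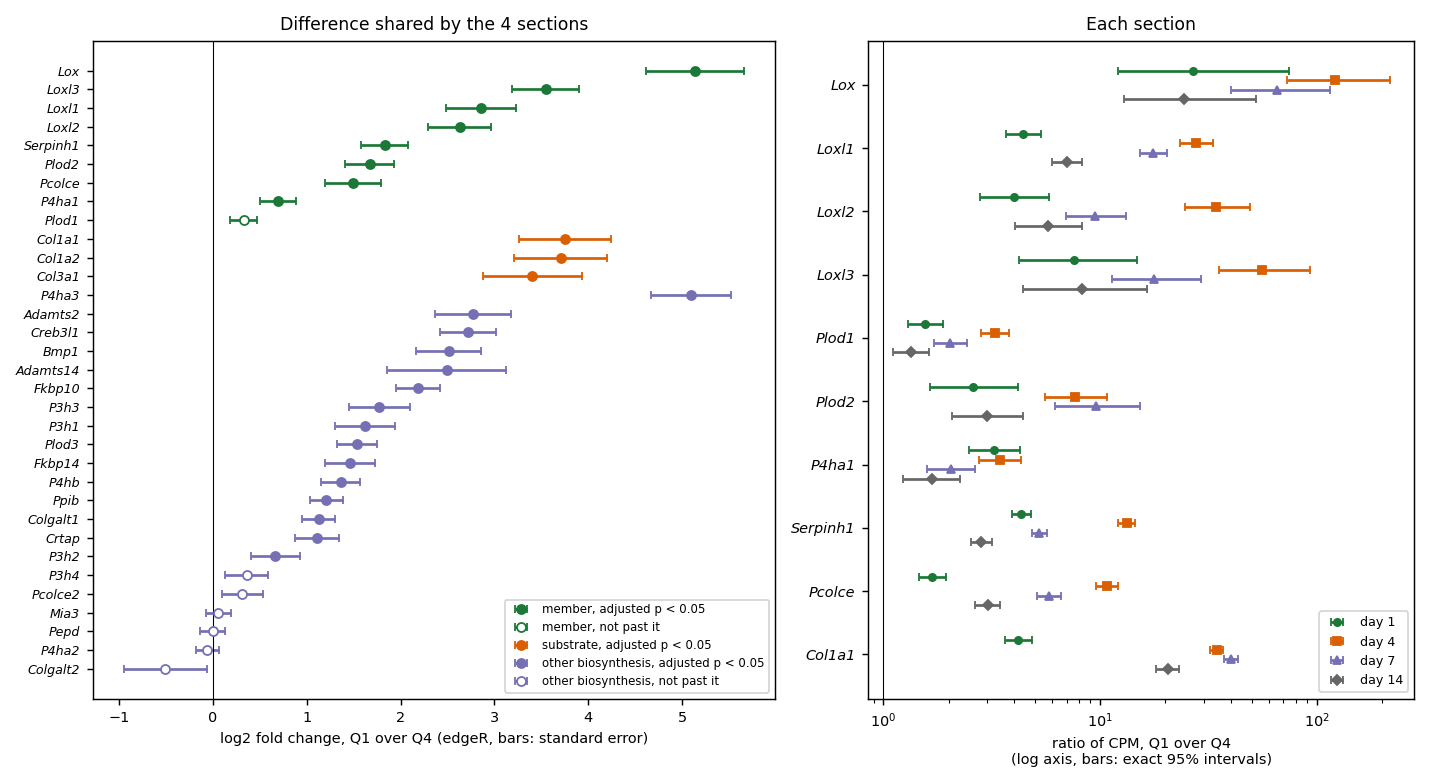
Left, log2 fold change of Q1 over Q4 (edgeR, 16 libraries, bars are standard errors) for the 9 genes (green), 3 collagen chain genes (orange) and 21 other collagen biosynthesis genes (purple), filled where the adjusted p was under 0.05. Right, the ratio of CPM in each section (log axis, exact 95% intervals), in which Lox lies above Col1a1 on every day, with overlapping intervals on days 7 and 14, and Plod1 has the lowest ratio of the 9 genes on every day.

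The wider machinery of collagen biosynthesis was measured alongside, as a list of 25 genes of which 21 had at least 100 UMIs. In Q1 15 of them were higher than in Q4, 0 were lower and 6 did not pass. Among all 11619 genes tested 27.5% were higher and 2903 genes were lower. The median log2 fold change was 1.36 over the list and 0.07 over all genes. P4ha3, an alternative catalytic subunit to P4ha1, had the largest value at 5.09 (SE 0.43), on 420 UMIs, while P4ha2, the third such subunit, was at -0.06 (SE 0.12). Bmp1, the procollagen C-proteinase that Pcolce enhances, was higher by 2.51 (SE 0.34), and Adamts2, the N-proteinase, by 2.77 (SE 0.41). Plod3 was higher by 1.53 (SE 0.21), P4hb, the shared beta subunit of prolyl 4-hydroxylase, by 1.36 (SE 0.21), and Fkbp10, a chaperone of telopeptide lysyl hydroxylation, by 2.18 (SE 0.24). Creb3l1, a transcription factor for collagen secretion, was higher by 2.72 (SE 0.30). Pcolce2, the second C-proteinase enhancer, was at 0.31 (SE 0.22, adjusted p = 0.25 by edgeR) where Pcolce was called. Scaled to total UMIs, Pcolce2 and P4ha2 were higher as well, by 0.96 and 0.58. Loxl4, the fifth family member, had 24 UMIs in the kept spots and was not tested.

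Over time, 8 of 9 members had their highest Q1 level on day 4 and Loxl1 on day 7. How many of all genes were highest on day 4 was not counted. The TMM scaling factor of Q1, which CPM does not use, was also highest on day 4. It was 1.29, 1.62, 1.58 and 1.05 on days 1, 4, 7 and 14. For Plod1, Plod2 and P4ha1 counting error did not separate days 4 and 7. Their day 7 to day 4 ratios were 0.868 (0.749 to 1.005), 0.989 (0.797 to 1.22) and 0.871 (0.706 to 1.07). With 1 mouse a day no test between days was possible, and the intervals below give counting error alone. From day 1 to day 4 Lox was 8.60-fold higher (7.27 to 10.2) in Q1, Loxl3 8.19-fold (6.60 to 10.3), Loxl2 6.09-fold (5.12 to 7.29), Pcolce 5.02-fold (4.55 to 5.55) and Loxl1 4.41-fold (4.05 to 4.82). The members that act inside the cell had smaller ratios over the same step, Plod2 at 3.73-fold (2.85 to 4.95), Serpinh1 at 2.46-fold (2.34 to 2.59), Plod1 at 1.90-fold (1.65 to 2.19) and P4ha1 at 1.29-fold (1.09 to 1.55). The Plod2 interval overlapped those of Loxl1 and Pcolce. Col1a1 was 25.2-fold higher (23.7 to 27.0), more than any member.

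The low day 14 values depended on how wide a group of spots was taken. In Q1 of day 14 Lox was 0.122 of its day 4 level (0.100 to 0.146) and Serpinh1 0.190 (0.176 to 0.205). In the 10% of spots with the lowest share, a group added after the data were seen and holding 0.230% Myh6 and Myl2 UMIs on day 14 in place of 1.53%, Lox was at 53.8, 566, 372 and 282 CPM on days 1, 4, 7 and 14. Its day 14 level there was 0.497 of day 4 (0.392 to 0.624). Loxl1 was not lower on day 14 in the lowest 10% and stood at 213, 1099, 1268 and 1427, so that day 14 was 1.299 times day 4 (1.16 to 1.45). Plod1, Plod2 and P4ha1 had day 14 to day 4 ratios there of 0.890, 1.04 and 0.850, all with intervals that span 1, and Pcolce 0.855 (0.743 to 0.981). Loxl3 remained the most reduced, at 0.244 (0.160 to 0.359), followed by Lox and by Serpinh1 at 0.534 (0.479 to 0.595). Col1a1 was at 0.630 (0.601 to 0.660). The lowest 10% of day 14 held 305447 UMIs, the fewest of the 4 sections.

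**Figure D3:**
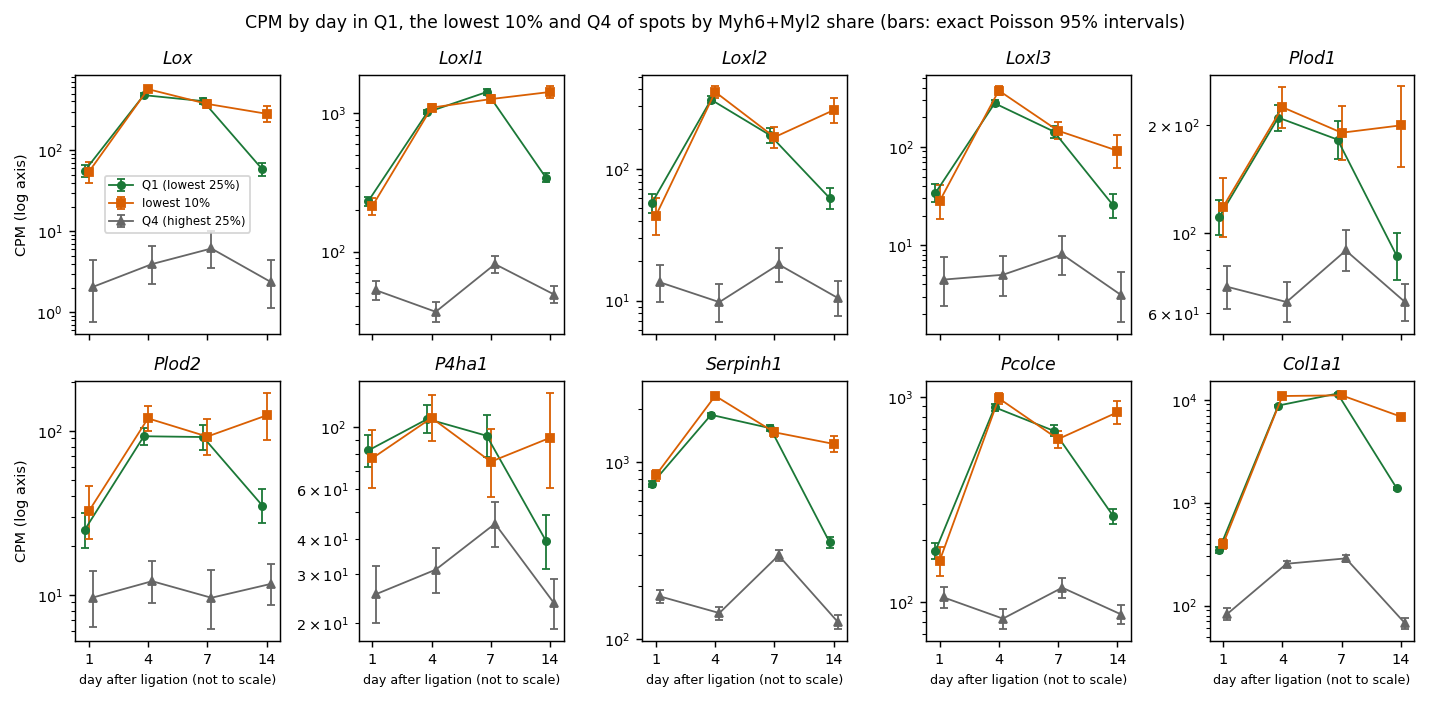
CPM (log axis) of the 9 genes and Col1a1 by day in Q1 (green), lowest 10% (orange) and Q4 (grey) of spots, 1 section a day, with exact Poisson 95% intervals. On days 1, 4 and 7 Q1 and lowest 10% lie close together, and on day 14 the lowest 10% is 2.31 to 4.85 times as high as Q1 for the 9 members.

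Set against Col1a1 UMIs, every member had its highest Q1 ratio on day 1, when Col1a1 itself was lowest there. Col1a1 was at 347 CPM in Q1 on day 1, and at 8772, 11484.5 and 1375 on days 4, 7 and 14. By CPM no member was highest in Q1 on day 1, and the ratios of all other genes across days were not tested. In Q4 the ratio was highest on day 14 for Lox, Loxl1, Plod1, Plod2, P4ha1 and Pcolce. It was highest on day 1 for Loxl2, Loxl3 and Serpinh1, and the Q4 intervals of days 1 and 14 overlapped for every member. Serpinh1 counted 2169 UMIs per 1000 Col1a1 UMIs in Q1 on day 1 (2008 to 2345), and 212, 136 and 257 on days 4, 7 and 14. Lox counted 160 per 1000 on day 1 (134 to 190), then 54.5, 35.1 and 42.2. P4ha1 had the steepest drop, from 238 on day 1 to 12.2 on day 4. Each ratio compares 1 gene with itself across sections, since UMIs of different genes are not on a scale of molecules per length. On day 14 the ratios of Loxl1, Plod1, Plod2, P4ha1, Pcolce and Serpinh1 were above those of days 4 and 7 in Q1, as with Plod1 at 62.8 against 23.9 and 15.9. In the lowest 10% of day 14 these ratios were smaller, 29.2 for Plod1 and 186 for Serpinh1, against 20.7 and 219 on day 4.

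Between Q1 and Q4, Lox counted more UMIs per Col1a1 UMI in Q1 of all 4 sections, but the difference did not pass in edgeR. Per 1000 Col1a1 UMIs it was at 160, 54.5, 35.1 and 42.2 in Q1 and at 24.9, 15.5, 21.4 and 35.5 in Q4. The Q4 values rest on 6 to 16 Lox UMIs. In day order Lox was higher by 6.42-fold (2.83 to 17.97), 3.51-fold (2.11 to 6.32), 1.64-fold (0.996 to 2.91) and 1.19-fold (0.616 to 2.58), so the intervals of days 7 and 14 span 1. In edgeR with the Col1a1 UMIs of each library as the reference its log2 difference was 1.33 (SE 0.71, adjusted p = 0.066). By the same fit Plod1 was lower per Col1a1 UMI in Q1 by 3.09, P4ha1 by 2.74, Pcolce by 2.06, Plod2 by 1.87 and Serpinh1 by 1.59, which makes 5 members lower where 94.4% of genes were, the Col1a1 difference itself being 3.75. The Serpinh1 call (adjusted p = 0.034 by edgeR) held in 8 of 14 alternatives, and on day 1 its Q1 to Q4 ratio was 1.03 (0.866 to 1.23). The members' median was -1.59 and that of all genes -3.37. Loxl3 at -0.10, Loxl1 at -0.69 and Loxl2 at -0.91 were not called.

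All genes of that edgeR fit share the same Col1a1 counts. A fit that gave each gene its own spread (limma without moderation between genes) was added after the data were seen. It divided by the same Col1a1 counts, so it did not remove that sharing. All libraries had equal weight in it, the Q4 libraries of 6 to 16 Lox UMIs as much as the day 4 Q1 library of 1318. There 95.6% of genes were lower, Loxl1 and Loxl2 joined the members called lower (-0.74 with adjusted p = 0.023, and -1.01 with adjusted p = 0.032), Loxl3 was not called (-0.27, adjusted p = 0.52), and Lox was called higher (1.299, adjusted p = 0.024). Per Col1a1 UMI every member but Plod2 had lower Q1 to Q4 ratios on days 7 and 14 than on days 1 and 4. Among them Loxl3 lay on different sides of 1 in the earlier and the later sections. Per Col1a1 UMI its Q1 to Q4 ratio was 1.81 (0.988 to 3.59) on day 1 and 1.62 (1.02 to 2.71) on day 4, but 0.445 (0.282 to 0.739) on day 7 and 0.401 (0.213 to 0.813) on day 14. Without the skeletal muscle spots, most of them in Q1 of day 7, its fitted difference was 0.00098 and was not called.

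**Figure D4:**
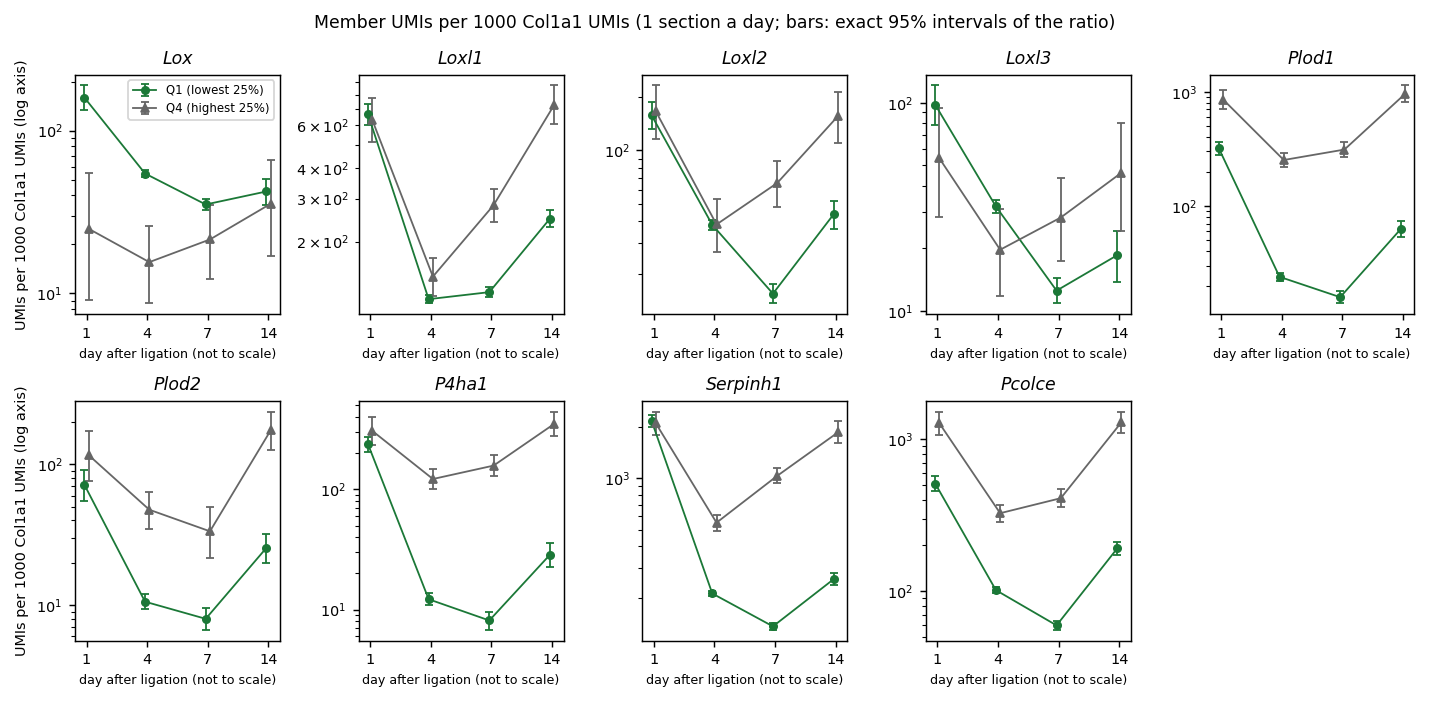
UMIs of each of the 9 genes per 1000 Col1a1 UMIs (log axis) by day, in Q1 (green) and Q4 (grey), with exact 95% intervals of the ratio. Lox lies above its Q4 ratio on all 4 days, Loxl3 crosses over between days 4 and 7, and Plod1, P4ha1, Plod2 and Pcolce lie below theirs on all 4 days.

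Within Q1, the spots with a Col1a1, Col1a2 and Col3a1 share above the section's Q1 median (collagen-rich) were set against the others (collagen-poor). All 9 members had higher CPM in the collagen-rich spots of every section, with ratios from 1.02 to 2.10 on days 1 and 4, from 1.43 to 2.93 on day 7 and from 2.93 to 35.2 on day 14. The intervals spanned 1 for Plod1 and P4ha1 on days 1 and 4 and for Plod2 on day 1. Scaled to total UMIs, as CPM is, the median gene was itself higher by 0.41 on the log2 scale. How many of all genes were higher in every section was not counted. None was called by edgeR, where 0% of genes were called in either direction. At an unadjusted p under 0.05 by edgeR 5 members were higher, and 1688 of the 11618 genes tested differed in either direction. The median log2 fold change was 0.85 over the members and 0.02 over all genes. DESeq2 called 40 genes higher and 248 lower among the 4410 to which it gave an adjusted p, with 1 member, Loxl1, at 0.044. On day 14 the collagen-rich spots held 371764 UMIs against 1712203 in the collagen-poor. Q1 of that section held 1.53% Myh6 and Myl2 UMIs, against 0.230% in its lowest 10% of spots. Lox was at 288 CPM in the collagen-rich spots of day 14, 8.18 in the collagen-poor and 2.38 in Q4. The part of depth and of muscle content in the day 14 ratios was not tested.

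Across the 16 libraries of section and bin the members ran closely together. Their 36 pairwise Pearson correlations of log2 levels lay between 0.79 and 0.98, a description over libraries that share sections, depth and the same ranking. The lowest was between Plod2 and P4ha1. How high the correlations of all other gene pairs lay was not counted. With Col1a1 the correlation was highest for Loxl3, Lox and Pcolce (0.95 each) and lowest for P4ha1 (0.81). Many genes ran closer to a member than Col1a1 did, from 277 of 4769 for Pcolce to 1679 for P4ha1, members included. The most similar other genes were sought among the 4769 with at least 1000 UMIs. Loxl1 ran most like Fbn1 (r = 0.996), the fibrillin of elastic fibres, and Col6a3. Pcolce ran most like P3h3, a prolyl 3-hydroxylase of collagen. Serpinh1 ran most like Ganab, a glucosidase of the endoplasmic reticulum, at 0.995. Lox ran most like Laptm5, a lysosomal membrane gene of leukocytes, at 0.993, with Fstl1 and Fn1 next. Loxl2 ran most like Gusb, Loxl3 like Pld4, Plod1 like Nxf1, Plod2 like Wwp2 and P4ha1 like Klc1, at 0.969 to 0.992.

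Of a list of 12 hypoxia genes 11 were tested, 2 were higher in Q1 than in Q4, 4 were lower and 5 did not pass, with a median log2 fold change of -0.45. Among all 11619 genes tested 27.5% were higher and 2903 genes were lower, so these counts do not set the list apart. The bins are ranked on cardiomyocyte RNA, and the part of muscle content in these values was not tested. Hif1a was higher by 1.03 (SE 0.20) and Slc2a1, a glucose transporter, by 0.91 (SE 0.27). Pdk1, a kinase that holds back pyruvate oxidation, was lower at -1.56 (SE 0.23), Bnip3, a mitophagy receptor, at -1.02 (SE 0.20), Vegfa, the endothelial growth factor, at -0.89 (SE 0.23) and Ldha, lactate dehydrogenase, at -0.45 (SE 0.17). Scaled to total UMIs, Ldha turned to 0.18 and Vegfa stood at -0.27, neither called, while Pdk1 at -0.94 and Bnip3 at -0.41 stayed lower. The 3 promoters printed above all hold a hypoxia core motif, as do 38.6% of all promoters in the RefSeq table. Their genes Plod1, P4ha1 and Serpinh1 were at 0.33, 0.69 and 1.83 in the same comparison, with Plod1 not called. Lox, Loxl1, Loxl2, Loxl3 and Plod2 had no promoter to read, and a link between motif and level was not tested.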

How the data were processed

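Each of the 4 sections had a table of UMI counts per gene and spot. The deposited UMI counts were made by the authors with Space Ranger 1.3.0 on mm10 from images aligned by hand, without normalization and limited to spots under tissue; the submitters' processing notes also list Seurat 4.1.1. From these, spots with over 1% of UMIs from 10 hemoglobin genes were removed, after the study's limit, which left 7503 of 9102 spots. The slides share one spot layout, so 2538 barcodes occur in 2 or more sections. Spot positions were not used, so the study's removal of outer spots was not repeated.

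Spots were ranked within each section on the Myh6 and Myl2 share and summed into 4 bins (Q1 to Q4) per section, which gave 16 libraries of 1470333 to 4729701 UMIs. Levels are counts per 1000000 UMIs (CPM) with exact Poisson 95% intervals, and ratios have exact conditional intervals. These cover counting error only, and with 1 mouse a day no test between days was made. edgeR 4.0.16 (TMM, robust quasi-likelihood, section as a block) in R 4.3.3 tested 11619 genes with at least 100 UMIs, leaving out Myh6 and Myl2, with Benjamini-Hochberg adjustment over all of them. The sections are different days, so a call means a difference on average over the days, not one present on each day. Each SE was taken from the F statistic, as log2 fold change over its root. For the comparison per Col1a1 UMI the log of the Col1a1 count was the offset. Alternatives were DESeq2 1.42.0, total UMIs, other gene and spot filters, no block, other ranking genes, bins of 10% of spots, other collagen denominators, each section left out and, added later, limma 3.58.1 with each gene's own spread. The steps were tested on simulated counts.

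The named genes are the 9 members, 3 collagen chain genes, the lists of 25 biosynthesis and 12 hypoxia genes, and per member the genes with the highest Pearson correlation of log2(CPM + 1) over the 16 libraries. The members and lists were chosen with earlier results of these data known. Several symbols were shared by more than 1 feature (38 symbols), none of them a member. Visium counts keep strand, and Loxl3 overlaps a gene on the other strand. Promoters and their motifs were read from the RefSeq table.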

Additional observations from a re-analysis of the deposited data

Results flagged for a closer look

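Loxl3 moved in opposite directions between sections when counted per Col1a1 UMI. Its Q1 over Q4 ratio was 1.81 on day 1 and 1.62 on day 4, and 0.445 on day 7 and 0.401 on day 14. The difference between the earlier and the later sections was not tested, since each day is 1 mouse. The day 1 interval of 0.988 to 3.59 spans 1, and the day 1 and day 14 ratios rest on 13 Loxl3 UMIs each in Q4. Every other member but Plod2 also had lower ratios on days 7 and 14 than on days 1 and 4. For Lox they were 6.42, 3.51, 1.64 and 1.19 in day order. The collagen chain gene Col3a1 lay at 0.827, 1.27, 0.723 and 0.554.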

How the results depend on the processing

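Across 15 alternatives the Q1 against Q4 comparison kept its direction for all 9 members, with 128 of 135 values on the same side of the threshold. The P4ha1 call was lost without day 1 and without the section block, and Plod1 passed in 5 of the 15. Calls over all genes (6103) fell to 3224 when genes needed 1000 UMIs, a setting that tests fewer genes.

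For Q1 against Q2 (3700 calls, 6 members higher) total UMIs gave 6145 calls, genes with at least 1000 UMIs 2263, no section block 994 with 1 member, and bins of 10% of spots, which sets the lowest against the next 10%, 0 with 0 members. Leaving out 1 section gave 1381 to 3499, the lowest without day 4, with 1547 without day 7. Plod1 reversed to -0.049 without day 4 and P4ha1 to -0.16 in bins of 10%.

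For Q2 against Q4 (398 calls, 4 members higher) genes with at least 1000 UMIs gave 168 and no block 0 with 0 members. Only those bins in the fit gave 925 and spots of at least 1000 UMIs 234. Bins of 10% gave 3081 with 8 members, but set the second lowest 10%, which lies within Q1, against the highest 10%. Leaving out 1 section gave 0 to 1510 calls and 0 to 5 members.

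Per Col1a1 UMI (10987 calls, 5 members lower) genes with at least 1000 UMIs gave 4618 and no block 0 with 0 members. Leaving out 1 section gave 3 to 6 members, 3 without day 4. Loxl3 reversed from -0.10 to 0.052 per sum of 3 collagen genes, 0.19 per Col3a1 UMI, 0.13 without the block, 0.00098 without skeletal muscle spots, 0.029 with 7 other ranking genes, 0.20 without day 7 and 0.24 without day 14 (-0.50 to 0.24 over the sections left out), with no call in any of these. Lox passed in 4 of 14 alternatives.

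Between collagen-rich and collagen-poor spots of Q1 (0 calls) DESeq2 gave 288 with 1 member, genes with at least 10 UMIs 4, and leaving out 1 section 0 to 136, the highest without day 1, with 10 without day 14. P4ha1 reversed to -0.028 without day 14 (-0.028 to 0.36 over the sections left out). The causes were not tested. Levels in Q1 left their counting interval in 25 of 36 cases with bins of 10%, added after seeing the data, and in 8 to 12 with the other groupings. No paired analysis was possible because each day is 1 mouse with no number shared by design; the section block pairs bins of the same section. Depth limited Lox and Loxl3 in Q4, where they had 6 to 21 UMIs.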
